A study of Magallana angulata with 3 samples.

Results

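The comparison described here sets muscle of the diploid oyster library DM against muscle of the diploid oyster library DF, at equal ploidy. It covered genes whose mean over the 2 libraries reached at least 1 RPKM, and 14229 of the 28027 deposited gene identifiers (50.8%) met that rule. RPKM is the number of reads on a gene divided by its length in kilobases, scaled to a common read total, so that it can be compared between genes of different length. The study used adductor muscle of the Fujian oyster, Magallana angulata, and had 3 libraries with 1 library per label: the diploids DF and DM, and the triploid T. Both diploid labels name offspring of diploid parents. The triploid label names offspring of the same parents in which a chemical treatment had kept the second polar body in the egg. All animals were held for a year at the same temperature and with the same food. What F and M stand for is not stated in the labels, nor is how many animals went into a library, or whether RNA of several animals was pooled.

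The adductor is the muscle that pulls the shell valves together. In bivalves it holds a fast part and a slow part that can keep the shell shut for long periods at little energy cost, a state known as catch. Contractile proteins are coded by a small number of very abundant transcripts in muscle, so the reads of a muscle library are shared unevenly between genes. Such a library therefore has fewer reads left for every other gene when its most abundant transcripts take more. None of the deposited identifiers is paired with a gene name in the files, and 0 of the 28027 occur in the RefSeq gene table of this species. Identifiers stand in for names below without any function, and the tissue label could not be checked against muscle markers or markers of other tissues. As whole tissue was used, fewer cells of a type and less RNA per cell cannot be told apart in any difference below.

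The read totals recovered from the deposited values were 1805591 for DF and 2057805 for DM, beside 2137859 for T. Intervals given below are 95% exact intervals for the counting of reads. They cover neither differences between animals nor differences between library preparations, and copies made by amplification can make them too narrow. With 1 library per label there is no replicate error, and no difference below has a replicate check or a p-value. Gene RPKM was above 0 for 17246 genes in DF and 15969 in DM.

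The reads of DM were concentrated in fewer genes than those of DF. In DM, 11 genes held 50% of all reads, whereas 104 genes were needed in DF and 48 in T. To reach 90% of the reads took 2160 genes in DM, 4342 in DF and 3644 in T. The 20 genes with the most reads in each library took 54.7% of the reads in DM (54.7% to 54.8%) and 37.0% in DF (36.9% to 37.1%). These shares count reads, so a long gene weighs more than a short one at the same RPKM.

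A single gene, CGI_10018876, had the most reads in each library, and it is the gene with the largest gain in RPKM from DF to DM. Its recovered coding length was 1131 nt. It stood at 155208 RPKM in DF, from 316954 reads, at 299164 RPKM in DM, from 696268 reads, and at 211346 RPKM in T, from 511017 reads. DM was thus the highest library and DF the lowest. The gene took 17.6% of the reads in DF (17.5% to 17.6%) and 33.8% in DM (33.8% to 33.9%), with 23.9% in T. The DM level was 1.93 times the DF level (1.92 to 1.94) as deposited.

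The concentration was not carried by that gene alone. Among the reads left once CGI_10018876 was set aside, the next 19 genes of each library took 31.6% in DM (31.5% to 31.7%), 23.6% in DF (23.5% to 23.7%) and 26.2% in T. Of these remaining reads, 50% fell in 110 genes in DM, 241 in DF and 177 in T. DM therefore ranked as the most concentrated library and DF as the least, with T between them, with and without the top gene. The leading genes themselves were mostly shared: of the 20 genes highest in RPKM in DF, 18 were also among the 20 highest in DM. Of the 22 genes in either list, 12 were higher in DM as deposited, 1 of them by at least 2-fold, and 2 were at least 2-fold lower. Over all genes compared, 20.8% were higher in DM as deposited, 5.45% by at least 2-fold, and 38.0% were at least 2-fold lower. Such calls depend on the scaling, as described below.

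**Figure D1:**
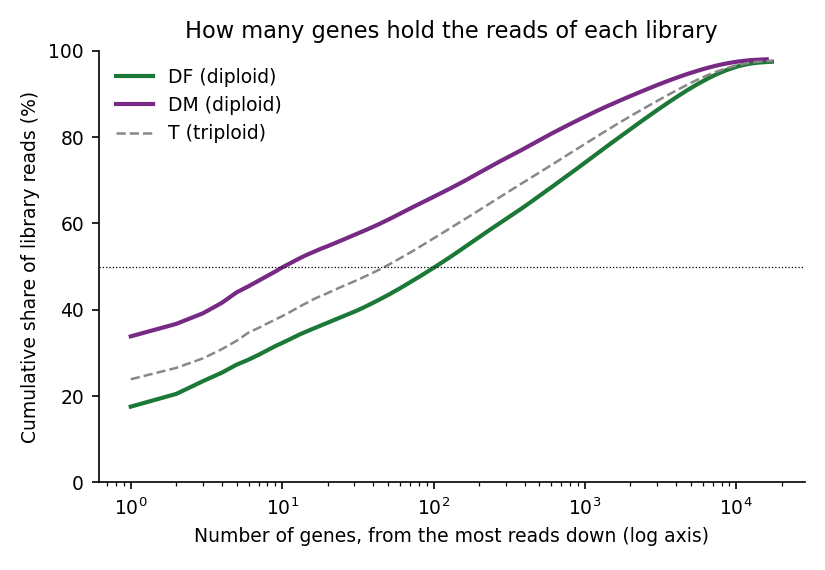
Cumulative share of library reads (vertical axis, %) against the number of genes, ordered from the most reads down (horizontal log axis), for DF, DM and T; the dotted line marks 50%. The DM curve starts at 33.8% with its first gene and reaches 50% at 11 genes, above the curve of T (48 genes) and that of DF (104 genes).

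The other side of this concentration was that fewer genes reached given RPKM levels in DM as deposited, and that lower classes held smaller shares of its reads. Shares of a library have a fixed sum, so a larger share at the top leaves a smaller share for the rest. At 10 RPKM or more there were 4801 genes in DM, 6807 in DF and 6130 in T. At 100 RPKM or more there were 846, 1227 and 1019, and at 1000 RPKM or more 119, 156 and 141. Genes with a mean between 1 and 10 RPKM over the 2 diploid libraries numbered 8185, and they held 3.34% of the reads in DM and 5.89% in DF. The 5022 genes between 10 and 100 RPKM held 12.7% in DM and 20.5% in DF. The 138 genes at 1000 RPKM and over held 65.1% in DM and 49.9% in DF. With CGI_10018876 set aside, the remaining genes of this top class still held 47.3% of the remaining reads in DM and 39.2% in DF. Of the same remaining reads, the class between 100 and 1000 RPKM held 25.2% in DM and 25.1% in DF. The class between 10 and 100 RPKM held 19.2% in DM and 24.9% in DF, and that between 1 and 10 RPKM 5.05% and 7.14%.

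Fewer genes were also detected in DM at equal depth. At 1759736 recovered reads, the depth of the shallowest library, the expected number of genes with at least 1 read was 17246 in DF and 15596 in DM, with 17010 in T. With the top gene set aside and 1320935 of the other reads in each library, the numbers were 17003, 15968 and 16993. DF and T were thus close to each other, and DM lay below both.

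Gene by gene, DM had the lower value for most of the 14229 genes on the deposited scale. Differences were taken on log2(RPKM + 1), which understates the change of genes with low values. The median difference of DM from DF was -0.71 on this log2 scale, with 50% of genes between -1.39 and -0.12. The central 90% lay between -2.62 and 1.08. Genes above 0 on this scale, that is higher in DM, numbered 2956, and 11273 were lower. The median level of the 14229 genes was 9.11 RPKM in DF and 4.80 in DM, with 7.45 in T.

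A gene was called higher or lower at a difference of at least 2-fold, a rule of size and not a test. As deposited, 776 genes (5.45% of the genes compared) were called higher in DM and 5411 (38.0%) lower. Of these, 400 genes (2.81%) among the higher and 3970 (27.9%) among the lower also had a 95% counting interval of the DM to DF ratio that left out 1. At the other end, 2388 genes (16.8%) differed by at most 1.2-fold in either direction. Within this comparison these shares are themselves the background, since every gene that met the rule was counted.

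These counts depend on how the libraries are brought to a common scale. Median-of-ratios scaling sets the median DM to DF ratio to 1 over the 14546 genes above 0 in both libraries, and it raised DM against DF by 0.77 on the log2 scale, or 1.71-fold. With this scaling 1823 genes (12.8%) were called higher in DM and 2759 (19.4%) lower. With the counting interval required as well, 1239 (8.71%) were higher and 1533 (10.8%) lower. Higher genes made up 12.5% of the calls as deposited and 39.8% after scaling. All 776 genes called higher as deposited were still called after scaling, as a shift in their favour makes certain, and 2759 of the 5411 lower genes were. Genes within 1.2-fold numbered 3063 (21.5%) after scaling. Scaling to equal RPKM sums with the top gene left out moved DM up by 0.36 on the log2 scale, and leaving out the 20 most abundant genes moved it up by 0.51.

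**Figure D2:**
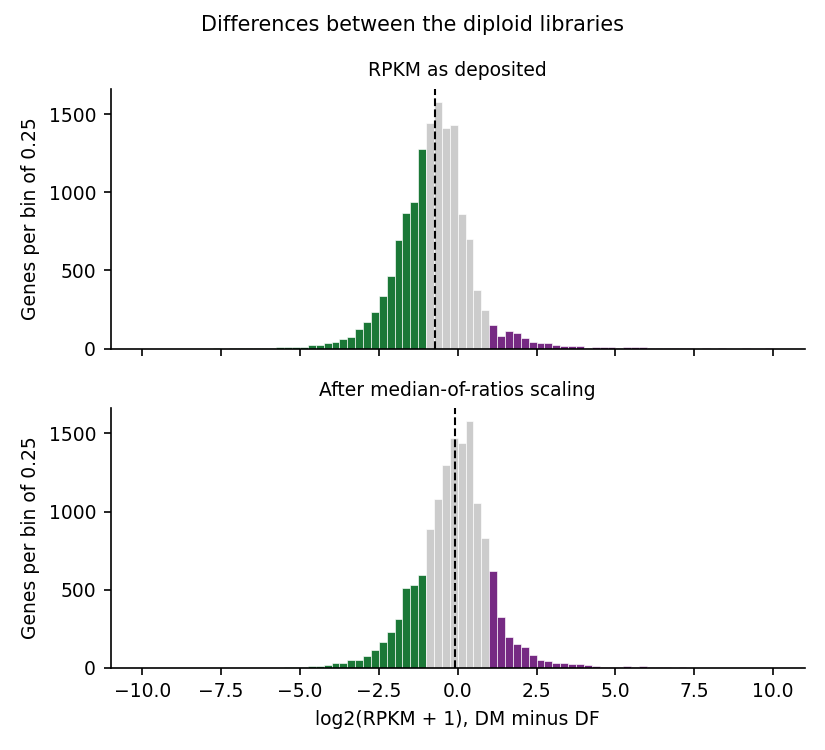
Number of genes (vertical axis, per bin of 0.25) by their difference in log2(RPKM + 1), DM minus DF (horizontal axis), for 14229 genes, on the deposited scale in the top panel and with median-of-ratios scaling in the bottom panel; green bars are at least 2-fold lower and purple bars at least 2-fold higher in DM, and the dashed line is the median. The median moves from -0.71 to -0.071 and the calls from 776 higher and 5411 lower to 1823 and 2759.

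Abundant genes lay higher in DM, relative to low genes, on either scale. As deposited, the median log2 difference between DM and DF (DM minus DF) was -0.71 in the 8185 genes with a mean of 1 to 10 RPKM and -0.79 in the 5022 genes of 10 to 100 RPKM. It was nearer 0 in abundant genes, at -0.38 in the 884 genes of 100 to 1000 RPKM and -0.35 in the 138 genes of 1000 RPKM and over. After median-of-ratios scaling the 4 medians were -0.15, -0.059, 0.39 and 0.43, so that the sign of the upper 2 depends on the scaling. The upper 2 lay above the lower 2 on both scales. The scaling raises DM by the same factor in every gene, so it is no separate check of this order. Among the 138 most abundant genes, 1 was called higher and 8 lower as deposited, against 31 and 6 after scaling. The spread around the median, as the median absolute deviation on the log2 scale as deposited, was 0.62 in the lowest class and 0.34 in the highest.

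Classes formed by the level in T, a library that took no part in the comparison, also put genes over 100 RPKM above those under it. As deposited, the medians were -0.77 for 6588 genes of 1 to 10 RPKM in T, -0.70 for 5074 genes of 10 to 100, -0.30 for 878 genes of 100 to 1000 and -0.35 for 141 genes of 1000 and over. The 1548 genes under 1 RPKM in T had a median of -0.87. By recovered coding length the medians lay closer together. Among genes with at least 100 reads over the 2 libraries, the median as deposited was -0.52 for 653 genes under 600 nt, -0.56 for 973 genes of 600 to 1200 nt, -0.57 for 992 genes of 1200 to 2400 nt and -0.51 for 572 longer genes.

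**Figure D3:**
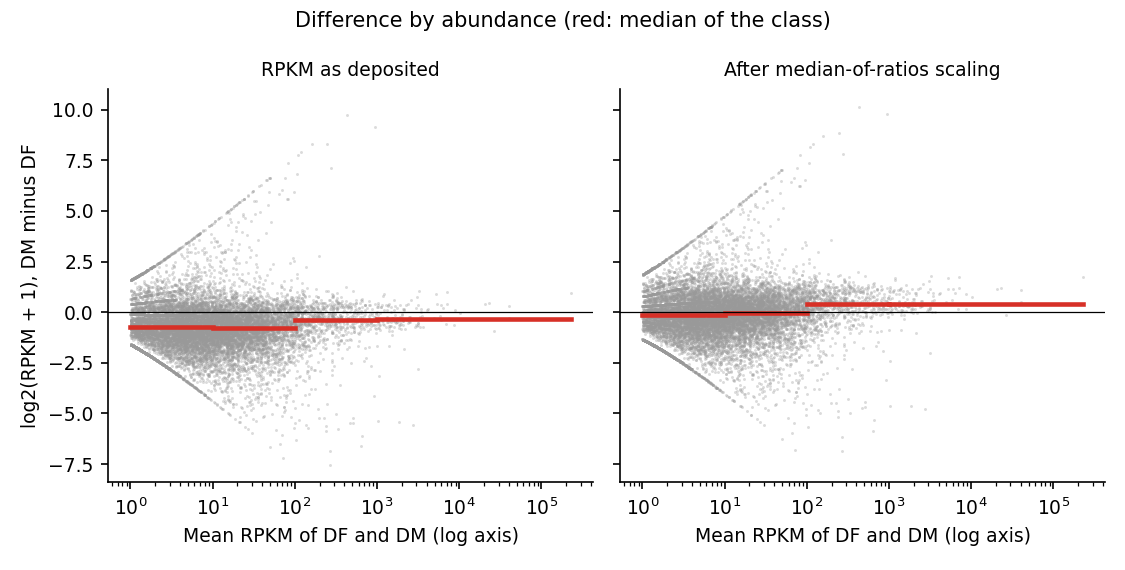
Difference in log2(RPKM + 1), DM minus DF (vertical axis), against the mean RPKM of the 2 libraries (horizontal log axis), 1 point per gene, on the deposited scale at the left and with median-of-ratios scaling at the right; red lines are the medians of the 4 abundance classes. The curved edges are genes at 0 in one library, and the red lines step up from -0.79 to -0.38 at 100 RPKM on the left and from -0.059 to 0.39 on the right.

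Large differences occurred in both directions. At 8-fold or more, 154 genes (1.08%) were higher in DM and 434 (3.05%) lower as deposited. With median-of-ratios scaling these were 217 (1.53%) and 229 (1.61%). Of the 154 higher genes, 97 had 0 reads in DF, and all 154 together had 145 reads in DF but 16962 in DM and 63827 in T, or 0.00803%, 0.824% and 2.99% of the reads of each library. Their median level was 0 RPKM in DF and 29.3 in DM, and 46.9 in T, a library that the choice of these genes did not use. In T, 50 of them reached 100 RPKM, against 15 in DM, and 5 had 0 reads in T.

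Of the 434 genes at least 8-fold lower in DM, 143 had 0 reads in DM. Their median level was 1.07 RPKM in DM, 28.7 in DF and 5.26 in T. Together they held 3.69% of the reads in DF but 0.142% in DM and 0.415% in T. In T, 7 of these genes reached 100 RPKM, against 80 in DF and 2 in DM. Both groups had shorter recovered coding lengths than the genes compared as a whole, with medians of 741 nt for the higher and 628.5 nt for the lower genes against 978 nt for all 14229. A recovered length is a lower limit, and fewer values set it where a library has 0 reads. That was so for 97 of the 154 genes in DF and 143 of the 434 in DM. A short gene also reaches a given RPKM with fewer reads. Whether the recovery, this or another property of the genes goes with the difference in length was not tested.

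Grouped by the difference after median-of-ratios scaling, the genes had the following levels, given as deposited RPKM and not rescaled. The 217 higher genes had medians of 0 RPKM in DF and 21.7 in DM, with 38.2 in T, and the 229 lower genes medians of 37.8, 0.73 and 4.19. The 1606 genes that were 2- to 8-fold higher in DM had a median of 9.03 RPKM in both DM and T and 4.47 in DF. The 2530 genes that were 2- to 8-fold lower in DM had a median of 9.09 RPKM in DF and 1.27 in DM, with 4.60 in T. Grouped as deposited, the 622 genes 2- to 8-fold higher in DM had medians of 0.948 RPKM in DF and 5.43 in DM, with 4.77 in T, so that T lay below DM there. The place of T relative to DM in the higher genes thus differed between the groups, and on deposited RPKM its median lay between those of DF and DM in the lower genes.

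**Figure D4:**
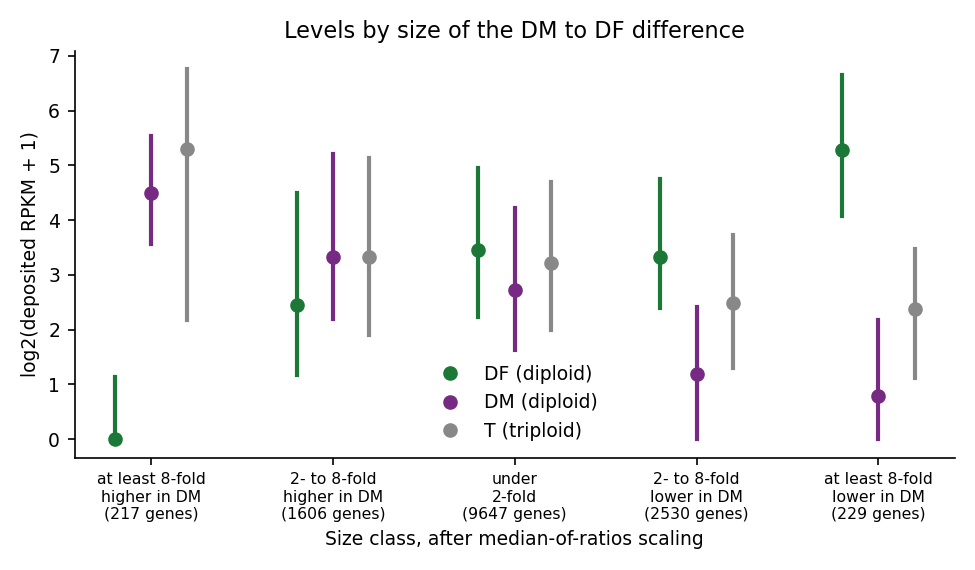
Median level and interquartile range in log2(deposited RPKM + 1) (vertical axis) in DF, DM and T for genes grouped by the size of the DM to DF difference after median-of-ratios scaling (horizontal axis). The groups were chosen on DF and DM, so only the grey T values are free of that choice: T is at 38.2 RPKM in the leftmost group and 4.19 in the rightmost.

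Some genes had reads in only a single diploid library. Of the 28027 identifiers, 96 had at least 10 reads in DM and 0 in DF, and 80 had at least 10 reads in DF and 0 in DM. As DM had the larger read total, 10 reads are a lower level in DM than in DF. This count was made over all identifiers, and 94 of the 96 and 76 of the 80 met the 1 RPKM rule. A count of 0 allows up to 3 reads, which in a gene of 1 kb is 1.66 RPKM in DF and 1.46 RPKM in DM. The 96 genes together had 5602 reads in DM and 14530 in T, so that their share of the T library was 2.50 times their share of DM. The 12 genes with at least 100 reads in DM held 8010 of these T reads. The median per gene differed less, at 18.1 RPKM in DM and 22.7 in T. In T, 61 of the 96 genes had at least 10 reads and 5 had none. The 80 genes had 1448 reads in DF and 500 in T, 0.292 times their share of DF, and 20 of them had at least 10 reads in T while 8 had none.

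The 2 groups also differed in depth. The genes of DM had a median of 30 reads there and a highest value of 711, and 12 of them reached 100 reads. The genes of DF had a median of 14 reads and a highest value of 70, and 0 reached 100 reads. With a minimum of 30 reads the numbers were 48 for DM and 10 for DF. With up to 1 read allowed in the other library they were 150 and 263, so that which library had more such genes depended on the limit.

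Among genes of at least 10 RPKM in both libraries, the balance of gains and losses depended on the scale and on the fold limit. The limit of 10 RPKM is one of level and not of reads, so short genes can pass it with few reads. At 10 RPKM or more in each of DF and DM there were 4425 genes, with a median log2 difference of -0.51 as deposited and 0.23 after scaling. Of these, 65 (1.47%) were called higher in DM and 1138 (25.7%) lower as deposited, against 583 (13.2%) and 338 (7.64%) after scaling. At the stricter limit, 9 (0.203%) were at least 4-fold higher in DM and 225 (5.08%) at least 4-fold lower as deposited, and 38 (0.859%) and 69 (1.56%) after scaling. The largest gain among these 4425 genes was 2.80 on the log2 scale and the largest loss was -6.62.

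The largest gain belonged to CGI_10014155, with a recovered coding length of 2982 nt. In DF it had 48.5 RPKM (261 reads, interval 42.8 to 54.7), against 343 in DM (2106 reads, 329 to 358) and 169 in T (1077 reads, 159 to 179). The 3 intervals do not overlap, with DM highest and DF lowest. Each named gene was picked for its difference between DF and DM, and the intervals of levels and ratios do not allow for that choice. The DM level was 7.08 times the DF level (6.22 to 8.08) as deposited and 12.1 times (10.6 to 13.8) after median-of-ratios scaling. The gene with the next identifier number had the second largest gain, a feature noticed after the values were seen, with 24.8 RPKM in DF and 167 in DM, 61.9 in T, and a DM to DF ratio of 6.73 (5.38 to 8.50). Whether the 2 genes lie side by side in the genome is not annotated in the sources used here.

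The largest loss belonged to CGI_10027582, with a recovered coding length of 1278 nt. In DF it had 1259 RPKM (2906 reads, interval 1214 to 1306), against 11.8 in DM (31 reads, 8.01 to 16.7) and 2.56 in T (7 reads, 1.03 to 5.28). DF was far above both other libraries, and DM was above T with intervals that do not overlap. The DF level was 107 times the DM level (75.1 to 158) as deposited and 62.5 times (43.9 to 92.2) after scaling. In DF the gene ranked 127 by RPKM, and in DM it ranked 4330.

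The largest loss in RPKM itself was that of CGI_10001766, one of the most abundant genes, with a recovered coding length of 321 nt. In DF it had 35023 RPKM from 20299 reads, against 18425 from 12171 reads in DM and 23726 from 16282 reads in T, and it ranked 4, 6 and 4 by RPKM. Its level was highest in DF and lowest in DM. The DF level was 1.90 times the DM level (1.86 to 1.94) as deposited, but 1.11 times (1.09 to 1.14) after median-of-ratios scaling. The scaling raised DM against DF by the same factor in both genes with the largest changes in RPKM. It brought CGI_10001766 nearer to equal levels. It took CGI_10018876, described above, further from them, from 1.93 to 3.30 times the DF level (3.28 to 3.31).

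**Figure D5:**
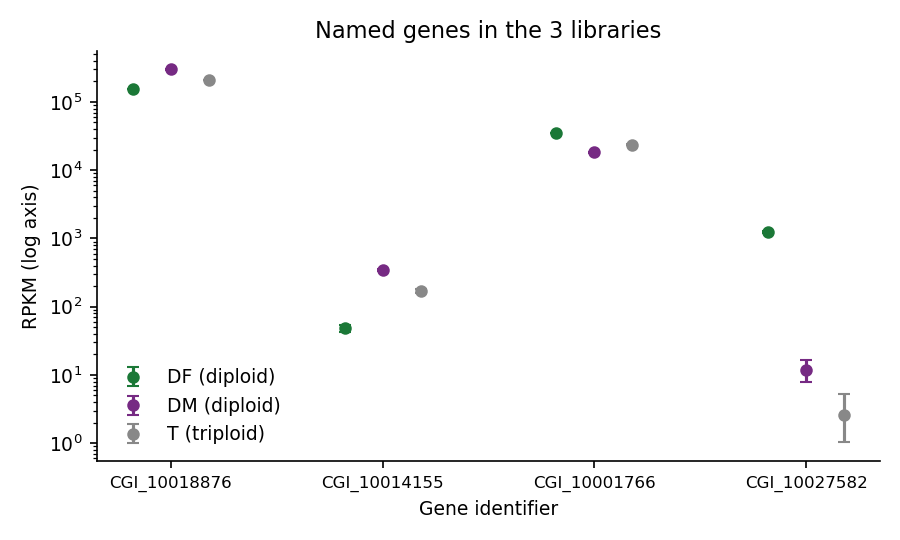
RPKM (vertical log axis) of the 4 named genes (horizontal axis) in DF, DM and T with 95% counting intervals, some smaller than the points. CGI_10014155 is at 48.5 in DF and 343 in DM, and CGI_10027582 at 1259 and 11.8.

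The order of the 3 pairs of libraries depended on how spread was measured. Over genes with at least 100 reads in the pair, the median absolute deviation of the log2 differences as deposited was 0.53 between DM and DF (3190 genes), 0.39 between T and DF (3699 genes) and 0.45 between T and DM (3077 genes). The SD over the same genes, which large differences weigh on more, was 1.30 between DM and DF, 1.49 between T and DF and 0.84 between T and DM. After median-of-ratios scaling the deviations were 0.54, 0.39 and 0.45 and the SDs 1.30, 1.48 and 0.84. Each library is part of 2 pairs, so these values are not independent, and with 1 library per pair side no test of their order can be made.

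At the limit of 1 RPKM the values rest on very few reads. The 302 genes just inside, with a mean of 1 to 1.1 RPKM, had a median of 4 reads over the 2 libraries and medians of 1.45 RPKM in DF and 0.637 in DM. The 322 genes just outside, at 0.9 to 1 RPKM, had a median of 3 reads and medians of 1.42 and 0.475 RPKM. Of all 14229 genes, 3126 had under 10 reads over both libraries and 3190 had at least 100, with a median of 31.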

How the data were processed

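Each of the 3 libraries has a table by the authors with RPKM values for 28027 identifiers, a unit given in the deposited file names. Per the labels' protocols, oligo(dT) was used to obtain mRNA, libraries came from an Illumina gene expression kit, and sequencing was on a HiSeq system. The submitters' processing notes name TopHat. How reads were counted, on which genome build and with which annotation, is not given in the sources used here.

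Read totals were recovered as the whole number that, multiplied by the lowest 400 RPKM values of a library, gave whole lengths most often. That was so in 328, 305 and 320 of these values in DF, DM and T. A total not related to the chosen total by a simple fraction gave at most 15. The next best totals, at 3, 0.6 and 3 times the chosen ones, came close, with 319, 296 and 313. Reads then came from the shortest length, in multiples of 3 nt, at which the reads of all 3 libraries came out whole to within 1e-06 of a read, or the rounding of the values for abundant genes, as they did for 19931 of 19931 genes above 0. Without the multiple of 3, 97.1% of lengths over 4525 genes were such multiples. A common factor of reads and length cannot be seen, so both are lower limits; recovered reads came to between 97.5% and 98.0% of the totals. The steps were tested on simulated data.

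Differences were taken on log2(RPKM + 1) with Python 3.11.15, numpy 2.4.6, scipy 1.17.1 and pandas 2.3.3. Intervals are exact, Poisson for a level and Clopper-Pearson for a share or ratio. Genes detected at equal depth are hypergeometric expectations. No test was made, as each label has 1 library. In each direction, the gene with the largest difference in RPKM and the one with the largest log2 difference at 10 RPKM or more in both libraries were named. The comparison and this rule were chosen with earlier results of these data known. Alternative scalings, pseudocounts, filters and limits are given in the closing section. The triploid library was not used to choose the genes compared or to call them by size. It helped to set the recovered lengths and reads, and it was used for the classes by level in T and for the other library pairs.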

Additional observations from a re-analysis of the deposited data

How the results depend on the processing

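In each list, counts are genes called higher, then lower, in DM than in DF, where 776 and 5411 were called in the comparison as deposited. Of 26 alternatives to these counts, 8 stayed within 1.5 times. The rest were 1823 and 2759 with median-of-ratios scaling, 1857 and 2738 with trimmed mean scaling, 1245 and 3490 with equal sums that left out the 20 most abundant genes, 345 and 2716 with a pseudocount of 5, 332 and 1636 with a fold limit of 4, 1247 higher with a fold limit of 1.5, 400 higher with the counting interval, and 1239 and 1533 with the interval and median-of-ratios scaling. A minimum mean of 10 RPKM left 220 and 2253. A minimum of 100 reads, added after seeing the data, left 88 and 964 of 3190 genes. Fewer genes were compared in both, but the shares called also differed by abundance class as deposited. They were 6.79% higher and 38.6% lower at 1 to 10 RPKM, and 3.94% and 40.5% at 10 to 100 RPKM. At 100 to 1000 RPKM they were 2.38% and 24.0%, and at 1000 RPKM and over 0.725% and 5.80%. The median log2 difference, -0.71 as deposited, was -0.071, -0.057, -0.41 and -0.29 with median-of-ratios scaling, trimmed mean scaling, and equal sums that left out the most abundant gene or the 20 most abundant. It was -0.84 and -0.43 with pseudocounts of 0.1 and 5, -0.60 with no filter and -0.55 with a minimum of 100 reads. The spread, 0.61 as deposited, was 0.64 with median-of-ratios scaling, trimmed mean scaling (0.643) and equal sums that left out 20 genes (0.636), 0.76 and 0.39 with pseudocounts of 0.1 and 5, 0.58 with no filter and 0.53 with a minimum of 100 reads. By abundance class from low to high, median-of-ratios scaling gave -0.15, -0.059, 0.39 and 0.43, the last 2 with the sign reversed, and classes by T gave -0.77, -0.70 and -0.30 in the lower 3. Genes in a single library numbered 48 for DM and 10 for DF at 30 reads, and 150 and 263 with 1 read allowed in the other. The 4 named genes kept their direction in 24 of 24 recomputations, and CGI_10018876 passed 2-fold under the 4 scalings. A pseudocount cannot change a direction, and all 4 scalings raised DM, so the 2 higher genes could not reverse. The largest shift, 0.79 on the log2 scale, was smaller than the 2 losses (-0.93 and -6.62). The 24 recomputations are therefore no check on the direction of these genes. The cause of the changes in this section was not tested. No paired analysis was possible because a label stands for 1 library and no replicate numbers are given.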
